A study of Mus musculus with 211 samples.

Results

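The BCL2 family decides whether a cell opens its mitochondrial outer membrane and dies by apoptosis. The measurements here cover 10 of its genes in single cells of the adult mouse cochlea: the survival genes Mcl1, Bcl2 and Bcl2l1 (BCL-XL), the effectors Bax and Bak1, and the BH3-only genes Bcl2l11 (BIM), Bid, Bad, Pmaip1 (NOXA) and Bbc3 (PUMA). The 10 genes were listed by name and found through their Ensembl identifiers among the 48709 genes of the expression table, where each had 1 entry.

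The survival proteins hold the effectors in check, and the BH3-only proteins relay stress signals by binding the survival proteins or by activating the effectors. Once freed, BAX and BAK form pores and cytochrome c leaves the mitochondrion, which starts the caspase cascade. In neutrophils, short-lived cells of the blood and bone marrow, MCL1 is known as the main survival protein. Both the Mcl1 transcript and its protein turn over quickly.

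The cells came from the cochleae of CD1 mice that carried the Lfng-EGFP transgene, in which control elements of Lfng, a gene of the Notch pathway, drive GFP. Cells with GFP were FACS-purified at postnatal day 60 (P60) and postnatal day 120 (P120), captured on Fluidigm C1 chips (just over 100 cells kept at each age) with several cochleae pooled for each chip, and made into full-length cDNA libraries without molecular identifiers. All animals carried the transgene and the labels list no treatment. The chip, here called a capture, was the replicate, with 8 captures at P60 (named 9c, 10c, 17c, 19c, 20c, 21c, 31 and 40) and 4 at P120 (28, 32, 36 and 38). Because animals were pooled, p-values measure the spread between captures.

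The labels describe the cells as adult cochlear supporting cells, and the markers went against this for most of them. The 15 supporting cell markers, Sox2, Gjb2 and Epcam among them, held 0.0797% of all reads, and 13 cells had 3 or more of them at 10 or more reads. For 9 genes of mature neutrophils, among them S100a8 and Csf3r, these values were 10.3% of reads and 182 cells, and for 10 genes of granulocyte precursors they were 6.52% and 115 cells. The members were therefore described by age, by capture and by 2 classes of cells. Elane/Mpo cells (43 cells) had 10 or more reads of Elane or Mpo, enzymes of the first granules that a neutrophil precursor makes, and fewer than 10 of Il1b, and Il1b cells (92 cells) had 10 or more reads of this cytokine gene and fewer than 10 of either enzyme gene. A further 24 cells met both definitions and 52 met neither.

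Several captures and libraries stood apart. Capture 10c was nearly empty, with a median of 451 reads per cell in 13 cells and no read of any member, a depth at which the summed level of a gene is detectable only above 25.2 CPM (reads of the gene scaled by the reads on all genes). The other captures had medians between 457441 and 1825680 reads on genes. Captures 9c, 10c, 17c, 19c, 20c and 21c, all P60, were sequenced together in their own run, and the 4 P120 captures shared runs with the P60 captures 31 and 40. Small numbers of reads were widespread: 85 cells had 1 to 9 reads of Elane, 93 of Mpo and 61 of Il1b, so that with a cutoff of 1 read 135 cells met both definitions. Whether reads passed between libraries was not tested, and shares are given both at 1 read and at 10 reads. No UMIs were used in these libraries, and intervals and limits cover counting error only.

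Mcl1 dominated the family. It had 178166 reads and was read in 184 cells (87.2% of all cells, exact 95% interval 81.9% to 91.4%), and in 138 cells (65.4%) at 10 or more reads. Bid, the BH3-only protein that caspase-8 cleaves, followed with a read in 70 cells (33.2%) and 10 reads in 32 cells (15.2%). The other 8 members had a read in 13 cells (Bbc3) to 36 cells (Pmaip1) and 10 reads in 5 cells (Bak1) to 19 cells (Bcl2l11 and Pmaip1).

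To compare levels between genes, the summed CPM of each capture was divided by the length of the gene's exons in kilobases (kb). Mcl1 had 307 ± 133 CPM per kb (SD, n = 11 captures, without the nearly empty 10c), with a range of 77.6 to 568, and was above every other member in 11 of 11 captures. Bid came next at 39.8 ± 72.4 CPM per kb, then Bad at 28.4 ± 81.4, Pmaip1 at 9.52 ± 15.9 and Bcl2l1 at 7.64 ± 18.2. At the low end stood Bax at 3.62 ± 7.68, Bcl2l11 at 2.24 ± 2.35, Bcl2 at 1.24 ± 2.93, Bbc3 at 0.847 ± 2.03 and Bak1 at 0.689 ± 1.41 CPM per kb. Below Mcl1 each gene exceeded the next in at most 7 of 11 captures and the SDs were larger than the differences, so that this part of the order is not separated by these captures.

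These spreads went with reads that sat in very few cells. A single Elane/Mpo cell of capture 28 held 64.5% of all Bcl2 reads (3253 of 5047), and the top cell held 50.2% for Bcl2l1, 58.01% for Bad, 50.1% for Bid and 41.1% for Bcl2l11. For Pmaip1, Bbc3, Bak1 and Bax this share was 30.4% to 36.7%. For Mcl1 the top cell held 7.74% and 14 cells were needed to reach a majority of its reads, whereas 1 or 2 cells were enough for each of the other 9 members.

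**Figure D1:**
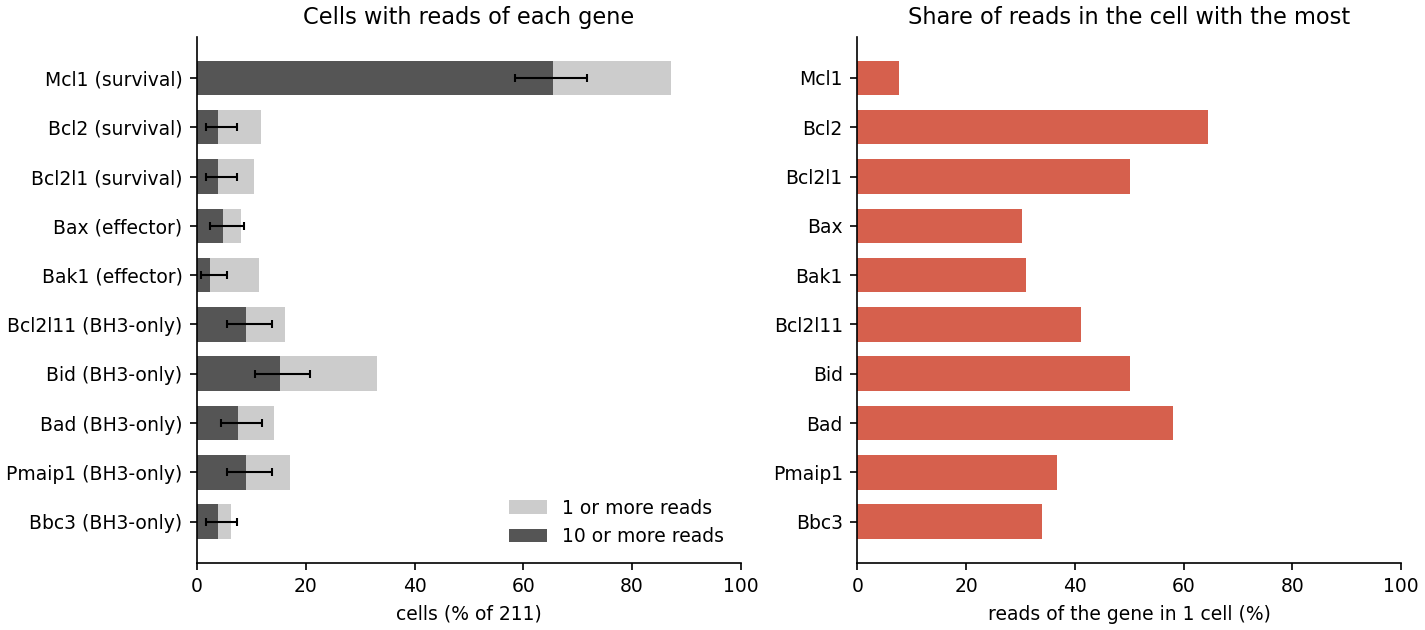
Left, percentage of all cells with 1 or more reads (light bars) and 10 or more reads (dark bars, with exact 95% intervals) of each gene, and right, the percentage of the gene's reads found in the cell with the most. Mcl1 reached 10 reads in 65.4% of cells with 7.74% of its reads in the top cell, while no other gene passed 15.2% of cells and all had 30.4% or more of their reads in 1 cell.

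The 10 genes lie on 8 chromosomes of GRCm38. Mcl1 lies on the plus strand of chromosome 3 (95658788 to 95663176), Bcl2 on the minus strand of chromosome 1 (106538178 to 106714274) and Bcl2l1 on the minus strand of chromosome 2 (152780668 to 152831728). Counts of Bcl2, Bax, Bak1, Bid and Bad may include reads of annotated genes that overlap them, such as Bcl2l13 and Gm17812 on the strand opposite to Bid, Gpr137 opposite to Bad and Ggnbp1 opposite to Bak1. The library kit does not mark strand, so that these reads cannot be told apart. Mcl1, Bcl2l1, Bcl2l11, Pmaip1 and Bbc3 have no overlapping gene in the annotation used.

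Most cells with another member also held Mcl1, but Mcl1 by itself reached 10 reads in 65.4% of all cells. At 10 or more reads, 60 cells had no member, 84 had 1, 38 had 2 and 29 had 3 or more, with a maximum of 6 in 1 cell. Of the cells with 10 reads of Bid, 25 of 32 also had Mcl1 at this cutoff, as did 16 of 19 cells with Pmaip1, 15 of 19 with Bcl2l11, 7 of 8 with Bcl2l1 and 4 of 8 with Bcl2. Whether these counts differ from what the share of Mcl1 in all cells and the depth of the cells would give was not tested. They are therefore descriptions and show no link between the members. A survival gene reached 10 reads in 143 cells, and Bcl2 or Bcl2l1 did so without Mcl1 in 5 of them. An effector gene reached 10 reads in 14 cells (6.64%), of which 13 also had Mcl1 at 10 reads and 1 had another survival gene. No cell had an effector without a survival gene, but only the 14 cells with an effector could show this. A count of 0 among these 14 allows up to 3 of them, and a survival gene reached 10 reads in 67.8% of all cells. BH3-only genes reached 10 reads in 67 cells, 8 of them without a survival gene. Bax and Bak1 shared 1 cell, out of 10 with Bax and 5 with Bak1.

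The comparison of P120 with P60 asks whether these genes differ between the 2 adult ages. None of the members passed the test in edgeR's quasi-likelihood fit over captures (Benjamini-Hochberg adjusted p under 0.05). In that fit, 0.120% of the 8346 tested genes were called, 5 higher and 5 lower at P120, against 1 gene without the nearly empty capture 10c. Of the 10 members 7 passed the filter on low counts, and 1 of them, Bcl2l1, had an unadjusted p under 0.05. DESeq2 called none of the 6 members to which it gave an adjusted p. The CPM of the captures of the 2 ages did not overlap for 0.419% of tested genes and for no member. With capture 10c at 0 for every member, none could be higher at P60 without overlap. For Bcl2, Bax, Bad and Bbc3, which also had a P120 capture at 0, overlap was fixed in both directions. The 0.419% has the same limit for genes without a read in 10c.

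Mcl1 was read at both ages, at levels that overlapped over all captures but not within the runs that held both ages. At P60 its summed CPM was 0 in capture 10c, 988 at the median and 1942 at the highest (capture 20c), and without 10c the lowest was 265 in capture 40. At P120 it was 819 in capture 28, 957 in 32, 1565 in 36 and 872 in 38. The 2 ages overlapped, and the fitted change from P60 to P120 was 0.70 ± 1.31 on the log2 scale (SE, edgeR, adjusted p = 1.0), while the median over all genes tested was 0.26. Without capture 10c, the means were 1046 ± 531 CPM at P60 (SD, n = 7) and 1053 ± 346 at P120 (SD, n = 4). Cells with a read made up 76.5% at P60 and 97.2% at P120, but at 50000 reads per cell, a depth that 164 cells reach and to which they were thinned at random, they made up 82.5% (66 of 80) and 76.2% (64 of 84).

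The captures differed in their makeup as well as in their Mcl1 levels. Capture 40, with the lowest level above 0, held 10 Elane/Mpo cells and 1 Il1b cell among 24 cells. Capture 36, the highest of the P120 captures, held 15 Il1b cells among 16 and no Elane/Mpo cell. Capture 31, with 15 Il1b cells, 2 Elane/Mpo cells and 5 that met both definitions among 23, had the second lowest level above 0. It lay below capture 28, which held 7 Il1b cells, 16 Elane/Mpo cells and 10 that met both among 37. Of the 36258 Mcl1 reads of capture 28, cells that met both held 7553, 6665 and 5009 in the highest cases. The part of makeup in the levels of the captures was not tested. In Il1b cells alone, the change with age was 0.36 (log2, edgeR, adjusted p = 0.993), fitted to 90 cells of the 9 captures with 3 or more of them. Summed over all Il1b cells, Mcl1 was 1365 CPM in 39 cells at P60 and 1783 CPM in 53 cells at P120. In the runs that held both ages (2 P60 and 4 P120 captures), the change over all cells was 1.65 (log2, edgeR, adjusted p = 1.0). There captures 31 and 40 had 621 and 265 CPM and lay below all 4 P120 captures. In these 6 captures, 3.26% of the genes tested were likewise higher at P120 without overlap and 10.1% did not overlap in either direction, and Mcl1 was the 1 member that did not overlap.

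The other survival genes were higher at P120 in the summed counts without passing the test. Bcl2 was at 0.179 CPM at the median of the P60 captures and at most 1.44 (capture 9c). At P120 it was 85.1 in capture 28, 36.7 in 32, 0.0382 in 38 and 0 in 36. High values thus occurred in 2 of 4 P120 captures, and they rested on single cells. Bcl2 did not pass edgeR's filter, and in DESeq2 its change was 5.22 ± 1.95 (log2, SE, adjusted p = 0.314). Bcl2l1 was at 0.111 CPM at the median of the P60 captures with a highest value of 31.5 (capture 21c). At P120 it was 280 in capture 32, 59.2 in 36, 8.41 in 38 and 0.339 in 28. Its fitted change was 4.24 ± 2.08 on the log2 scale (SE, edgeR, unadjusted p = 0.0417, adjusted p = 0.907). Without capture 21c it was 6.84 (adjusted p = 0.375). The ages overlapped for both genes. Markers of other cells also differed between the ages. The 7 basophil and mast cell genes held 1.75% of reads at P120 (0.00199% to 4.57% over captures, 17 cells with 3 or more of them at 10 reads) and 0.116% at P60 (4.70e-05% to 0.938%, 1 cell). The 7 B cell genes held 0.0553% and 0.000281% of reads, with 3 and 0 such cells. Their part in the levels of Bcl2 and Bcl2l1 was not tested.

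Effector levels were low at both ages. Bax, which is cytosolic until activated, ranged from 0 to 40.2 CPM over the P60 captures (median 0.0378) and was 1.72, 12.9, 0 and 1.53 CPM in captures 28, 32, 36 and 38 at P120. Bak1, which resides on mitochondria, ranged from 0 to 3.82 CPM at P60 (median 0) and was 0.836, 1.38, 11.3 and 0.115 CPM in the same P120 captures. Neither was separated by age. The fitted change of Bax was −0.91 ± 2.24 (log2, SE, edgeR, adjusted p = 1.0), and Bak1 was not tested because its counts were too low.

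The BH3-only genes also overlapped between the ages. Bid ranged from 0 to 715 CPM at P60 (median 16.5) and was 10.1, 70.6, 0.110 and 78.7 CPM in captures 28, 32, 36 and 38. Its fitted change was −2.43 ± 1.87 on the log2 scale (SE, edgeR, adjusted p = 1.0), and it was read in 24 of 80 P60 cells and 10 of 84 P120 cells at 50000 reads per cell. Bad, a BH3-only gene whose protein is held inactive by growth factor signalling, ranged from 0 to 700 CPM at P60 (median 13.1) with its highest value in capture 21c, where 1 cell held 3270 reads. At P120 Bad was 15.5, 2.16, 0 and 4.2 CPM in captures 28, 32, 36 and 38, and its fitted change was −4.44 ± 2.39 (log2, SE, edgeR, adjusted p = 0.958). Without capture 21c this was −1.10 (edgeR, adjusted p = 1.0).

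Bcl2l11, whose protein BIM binds all survival members, ranged from 0 to 57.3 CPM at P60 and from 2.52 to 45.7 CPM at P120, with a change of 1.03 ± 2.14 (log2, SE, edgeR, adjusted p = 1.0). Pmaip1, whose protein NOXA binds MCL1, ranged from 0 to 93.1 CPM at P60 and from 0.767 to 128 CPM at P120, with a change of 0.66 ± 2.10 (log2, SE, edgeR, adjusted p = 1.0). Bbc3, a target of p53, was at 0 CPM in 5 of 8 P60 captures and 2 of 4 P120 captures and was not tested. For all 10 genes the spread between captures of 1 age was as large as the difference between ages.

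**Figure D2:**
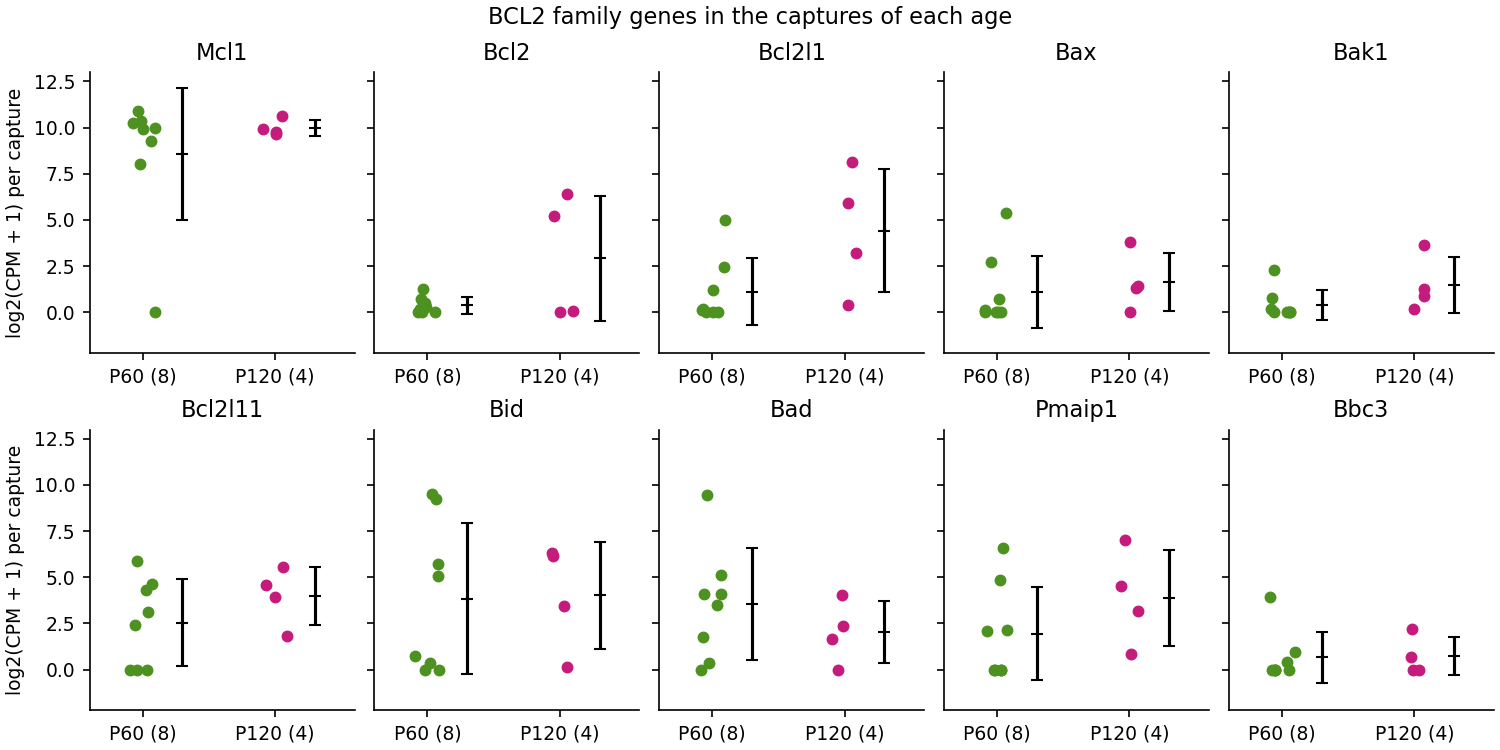
log2(CPM + 1) of each gene in the summed reads of each capture (points), with the mean and SD beside them, for the 8 P60 and 4 P120 captures. Mcl1 lay between 265 and 1942 CPM in all captures but 10c, which had no read of any of these genes, and the points of the 2 ages overlapped for all 10 genes.

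The comparison of Elane/Mpo cells with Il1b cells sets cells with transcripts of precursor granules against cells with the cytokine transcript. It used the 4 captures with 3 or more cells of each class (28, 32, 38 and 9c, of which 9c is P60), with 30 Elane/Mpo cells and 45 Il1b cells, and the capture as a block. Mcl1 was the 1 member that passed the test in edgeR, and it was lower in Elane/Mpo cells. In this fit, 1.56% of the 5775 genes tested were lower in Elane/Mpo cells (90 genes) and 0.312% higher (18 genes). Counts scaled by library totals gave 48 lower and 66 higher, and DESeq2 gave 507 lower and 1286 higher of 21620 genes. Of the 10 members 5 passed the filter on low counts, and Mcl1 was also the only one with an unadjusted p under 0.05.

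In Elane/Mpo cells, summed Mcl1 was 293 CPM in capture 28, 141 in 32, 62.3 in 38 and 210 in 9c. In Il1b cells it was 1017 CPM in capture 28, 2680 in 32, 1631 in 38 and 2475 in 9c. The 2 classes did not overlap, and the share of all genes tested for which this holds was not counted. Mcl1 was lower in Elane/Mpo cells in 4 of 4 captures, as were 6.72% of the genes tested. The ratio was 3.47 in capture 28, 19.1 in 32, 26.2 in 38 and 11.8 in 9c, with a geometric mean of 11.96. The fitted difference was −4.50 ± 1.20 on the log2 scale (SE, edgeR, adjusted p = 0.0145), and −5.77 relative to the median of all genes tested, which was 1.28. An exact two-sided sign-flip test of the 4 log2 ratios gave p = 0.125, the smallest that 4 captures allow.

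The direction held under all 15 alternative settings, with fitted differences between −4.98 and −3.48 (log2), but the call did not. The adjusted p of Mcl1 (edgeR or DESeq2) ranged from 0.0176 to 0.548, and it stayed under 0.05 in 6 of the 15. It was 0.0299 in DESeq2, 0.111 with cells thinned to 50000 reads, 0.0647 with library totals and 0.0986 without the filter on low counts. It was 0.227 without capture 32, 0.153 without 38 and 0.191 without 9c.

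The difference in Mcl1 did not rest on the top cells. After removing the cell with the most Mcl1 reads from each capture and class, the ratio was 3.71 in capture 28, 30.8 in 32, 28.3 in 38 and 8.06 in 9c. Across single cells, the median was 48.99 CPM in the 43 Elane/Mpo cells (range 0 to 3847) and 823 CPM in the 92 Il1b cells (range 0 to 12864). The 24 cells that met both definitions lay between these with a median of 363 CPM, and the 52 cells that met neither had a median of 3.63 CPM. The last group holds all 13 cells of the nearly empty capture 10c, which had no Mcl1 read and which lower its median. Cells of the 2 classes overlapped widely.

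The classes differed in other ways that moved with Mcl1. Elane/Mpo cells had a median of 1700680 reads and Il1b cells 653435, and after thinning to equal depth their median numbers of genes were 2440.5 and 737. At that equal depth Mcl1 was read in 68.4% of Elane/Mpo cells (26 of 38, exact 95% interval 51.3% to 82.5%) and 89.7% of Il1b cells (70 of 78, 80.8% to 95.5%). All 10 genes of the dissociation and immediate early list, such as Fos, Jun and Egr1, were detected, and they held 0.177% of reads in Elane/Mpo cells (0.0205% to 0.454% over the 4 captures) and 0.780% in Il1b cells (0.2195% to 1.22%). The 10 cycling markers held 0.256% to 0.377% in the Elane/Mpo cells and 0.0531% to 0.0896% in the Il1b cells of these captures. The 7 basophil and mast cell genes, all detected, held 1.54% of reads in Elane/Mpo cells (0.00110% to 5.89% over the 4 captures) and 0.000662% in Il1b cells (0.000400% to 0.00227%), and 9 and 0 cells had 3 or more of them at 10 reads. The 7 B cell genes held 0.0928% and 0.000515% (3 and 0 such cells) and the 6 T and NK cell genes 0.140% and 0.00563% (2 and 0 such cells). The part of depth, of the number of genes or of these lists in the Mcl1 difference was not tested.

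**Figure D3:**
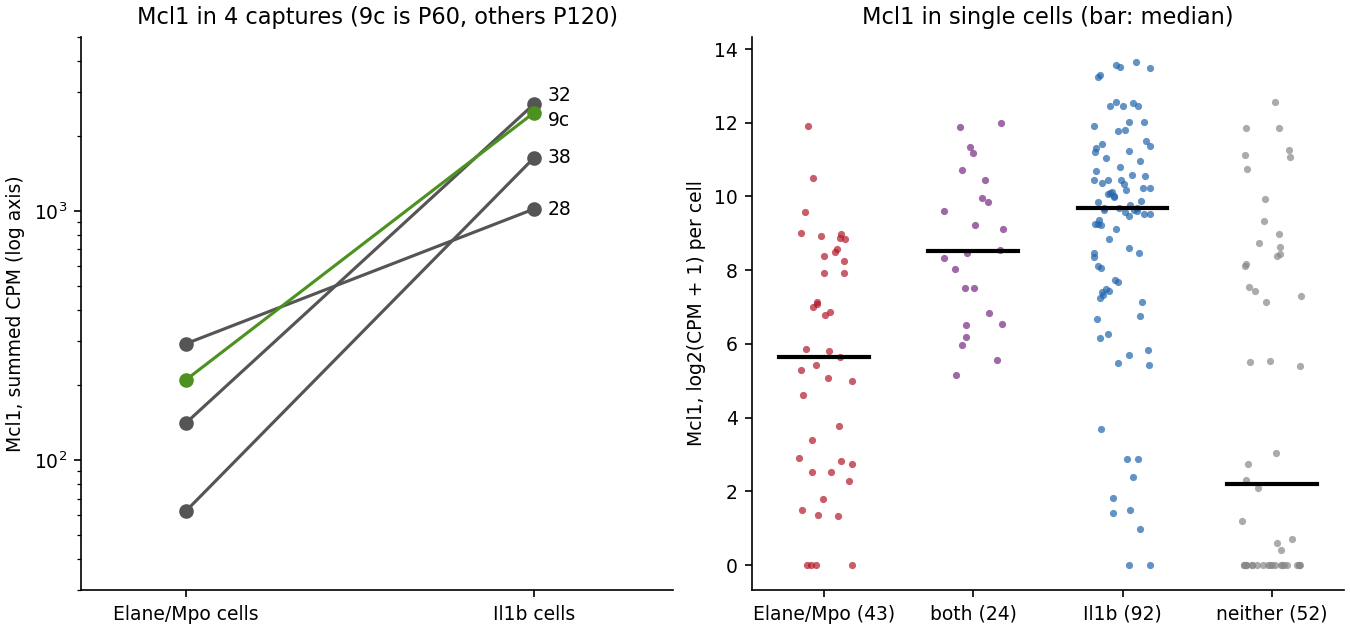
Left, summed CPM of Mcl1 on a log axis in Elane/Mpo cells and Il1b cells, with a line for each of the 4 captures, and right, log2(CPM + 1) of Mcl1 in single cells of each class with the median as a bar (number of cells in parentheses). All 4 lines rise from 62.3 to 293 CPM on the left to 1017 to 2680 CPM on the right, while the clouds of single cells overlap.

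Bcl2 and Bcl2l1 were read in few cells of either class. Bcl2 was read in 12 of 43 Elane/Mpo cells (27.9%) and reached 10 reads in 3. In Il1b cells it was read in 4 of 92 (4.35%), with 1 read in each, and 0 of 92 at 10 reads allows a share of up to 3.26%. At equal depth it was read in 4 of 38 (10.5%, exact 95% interval 2.94% to 24.8%) and 0 of 78, which allows a share of up to 3.85%. The summed levels were 72.6 and 0.0517 CPM, and 25.2 CPM remained in Elane/Mpo cells without the top cell. By capture, Bcl2 in Elane/Mpo cells was 162 CPM in 28, 77.8 in 32, 0 in 38 and 0.278 in 9c, against 0, 0, 0.0745 and 0 in Il1b cells. It was thus higher in Elane/Mpo cells in 3 of 4 captures, over 1 CPM in 2 of them, and in capture 38 the order was the reverse with 1 read.

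Bcl2l1 was read in 10 of 43 Elane/Mpo cells (23.3%) and 3 of 92 Il1b cells (3.26%). At equal depth these were 3 of 38 (7.89%, 1.66% to 21.4%) and 2 of 78 (2.56%, 0.312% to 8.96%), with overlapping intervals. In Elane/Mpo cells it was 0.576 CPM in capture 28, 259 in 32, 56.2 in 38 and 1.67 in 9c, and in the Il1b cells of these captures it had no read. It was therefore higher in Elane/Mpo cells in 4 of 4 captures, as were 25% of the genes tested. A single cell held 94.01% of its reads in Elane/Mpo cells, where 3.95 CPM remained without it. Neither gene passed edgeR's filter. DESeq2 called Bcl2l1 (8.22 ± 2.52 on the log2 scale, SE, adjusted p = 0.0112) and not Bcl2 (6.41 ± 2.64, adjusted p = 0.0676). With cells thinned to 50000 reads DESeq2 called no member.

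The effectors were rare in Il1b cells. Bax was read in 7 of 43 Elane/Mpo cells (16.3%, exact 95% interval 6.81% to 30.7%) and in 1 of 92 Il1b cells (1.09%, 0.0275% to 5.91%), and in no Il1b cell of the 4 compared captures. Bak1 was read in 13 of 43 Elane/Mpo cells (30.2%, 17.2% to 46.1%) and in 5 of 92 Il1b cells (5.43%, 1.79% to 12.2%). Most of these Bak1 cells had few reads, with a median of 2 in each class. At equal depth Bax was read in 2 of 38 and 1 of 78 cells and Bak1 in 3 of 38 and 2 of 78, and the intervals overlapped for both genes. An effector reached 10 reads in 6 of 43 Elane/Mpo cells and 3 of 92 Il1b cells.

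None of the BH3-only genes was called between the classes. Bid was read in 27 of 43 Elane/Mpo cells (62.8%) and 29 of 92 Il1b cells (31.5%), and at equal depth in 13 of 38 (34.2%, exact 95% interval 19.6% to 51.4%) and 12 of 78 (15.4%, 8.21% to 25.3%), with overlapping intervals. In the 4 captures Bid was 19.3, 149, 205 and 62.9 CPM in the Elane/Mpo cells of 28, 32, 38 and 9c, against 0, 5.58, 57.98 and 16.3 CPM in Il1b cells. It was thus higher in Elane/Mpo cells in 4 of 4, as were 25% of the genes tested. Its fitted difference was 3.08 ± 2.88 (log2, SE, edgeR, adjusted p = 0.633). Over all cells the summed level was the reverse, 76.4 CPM in Elane/Mpo cells and 325 CPM in Il1b cells. A single Il1b cell of capture 31 held 64.9% of the reads of that class, and 115 CPM remained without it.

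Bad was read in 8 of 38 Elane/Mpo cells (21.1%, 9.55% to 37.3%) and 3 of 78 Il1b cells (3.85%, 0.800% to 10.8%) at equal depth, and these intervals overlapped too. Its summed levels were 15.2 CPM and 1.82 CPM, and its fitted difference was 3.01 ± 3.76 (log2, SE, edgeR, adjusted p = 0.738). In capture 28 it was lower in Elane/Mpo cells, at 1.82 against 3.81 CPM.

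Bcl2l11 and Pmaip1 were read in similar shares of the classes at equal depth. Bcl2l11 was read in 4 of 38 Elane/Mpo cells and 8 of 78 Il1b cells at equal depth (10.5% and 10.3%). Its summed levels in the Elane/Mpo cells of captures 28, 32, 38 and 9c were 4.74, 0.391, 0 and 0.557 CPM, against 5.44, 0.186, 28.02 and 251 CPM in Il1b cells, and its fitted difference was −5.02 ± 4.35 (log2, SE, edgeR, adjusted p = 0.596). Pmaip1 was read in 13.2% and 10.3% of cells at equal depth, with a fitted difference of 0.07 ± 3.16 (adjusted p = 0.995). Bbc3 was read in 4 cells of each class, or in 0 of 38 and 2 of 78 at equal depth, and was not tested.

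**Figure D4:**
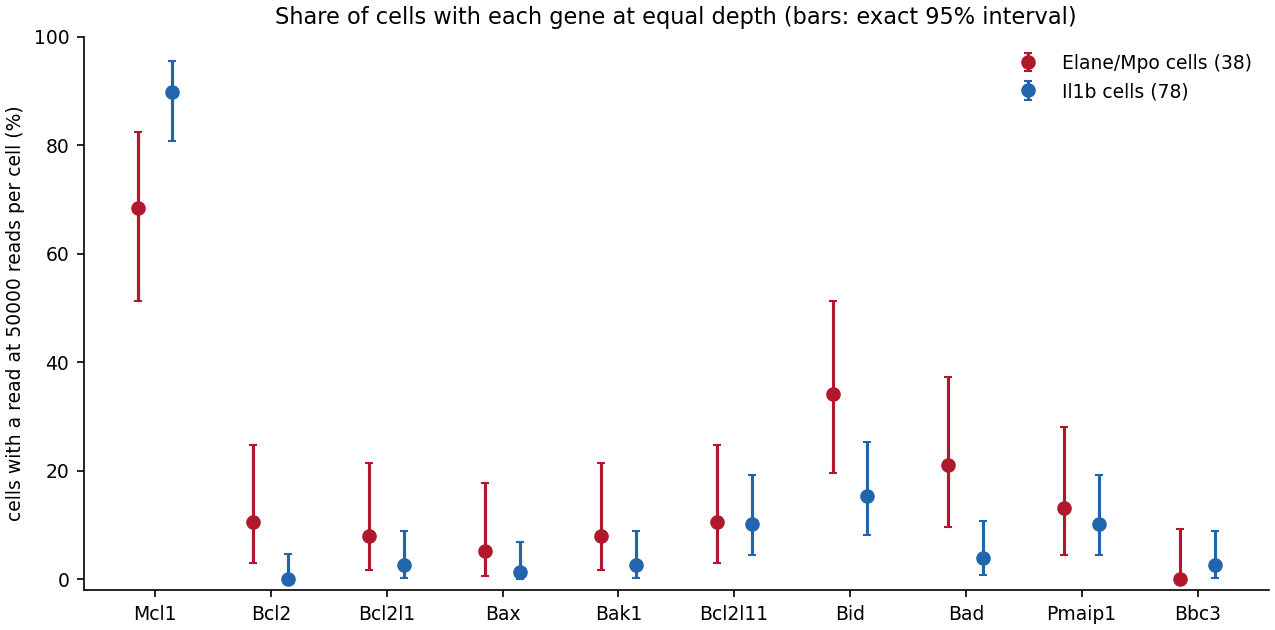
Percentage of cells with a read of each gene after thinning to 50000 reads per cell, in Elane/Mpo cells (38) and Il1b cells (78), with exact 95% intervals. The shares in Elane/Mpo and Il1b cells were 68.4% and 89.7% for Mcl1, 34.2% and 15.4% for Bid and 21.1% and 3.85% for Bad, with intervals that overlap for each of these genes.

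The number of members per cell also differed between the classes. Mcl1 was the sole member at 10 reads in 12 of 43 Elane/Mpo cells (27.9%) and 48 of 92 Il1b cells (52.2%), whereas 3 or more members reached 10 reads in 14 (32.6%) and 5 (5.43%). At equal depth, the mean number of members with a read was 1.79 ± 1.26 (SD over 38 cells) and 1.38 ± 0.69 (SD over 78 cells). By age these means were 2.27 ± 0.96 and 1.51 ± 0.70 at P60, and 1.48 ± 1.34 and 1.28 ± 0.67 at P120. The SDs are over cells, which are not replicates, and the difference was not tested. The number of all genes detected was also larger in Elane/Mpo cells, and its part in these counts was not tested.

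In cells pooled over captures, the order of the classes for Mcl1 was the same at both ages. At P60 the summed levels were 193 CPM in 17 Elane/Mpo cells and 1365 CPM in 39 Il1b cells, and at P120 they were 215 CPM in 26 and 1783 CPM in 53 cells. At P60 the classes came largely from different captures. Capture 40 gave 10 of the Elane/Mpo cells and 1 Il1b cell, and capture 31 gave 2 and 15. The Bcl2 and Bcl2l1 reads of Elane/Mpo cells came from P120, where Bcl2 was at 116 CPM and Bcl2l1 at 100.6 CPM, against 0.199 and 0.596 CPM at P60. With 1 P60 capture in the class comparison, a test of the class difference by age could not be made.

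Of 15 other genes of the BCL2 family, 3 had no read (Bcl2l10, Bok and Bcl2l14), and none of those tested was called in either comparison by edgeR. Tests covered 7 of them by age and 3 by class, with 2 and 0 at an unadjusted p under 0.05. Bnip3l, which marks mitochondria for removal, was the most widely read, with 34 of 43 Elane/Mpo cells (79.1%) and 30 of 92 Il1b cells (32.6%), or 63.2% and 21.8% at equal depth. It was higher in Elane/Mpo cells in 4 of 4 captures, as were 25% of the genes tested. Its fitted difference was 1.31 ± 2.44 (log2, SE, edgeR, adjusted p = 0.844), beside a median of 1.28 over all genes tested. Bcl2l12, which acts on caspases and p53, was read in 17 of 43 Elane/Mpo cells (39.5%) and 0 of 92 Il1b cells, which allows a share of up to 3.26%. At equal depth it was read in 9 of 38 (23.7%) and 0 of 78, and it was too low to test by class. Bnip3 and Bcl2l13 had class differences of −0.17 and 5.80 (log2) and age differences of −0.77 and −0.55, none called.

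The survival genes Bcl2a1a, Bcl2a1b and Bcl2a1d are near-identical copies, so that the division of reads among them is uncertain. Bcl2a1b and Bcl2a1d, like 6.72% of the genes tested, were higher in Il1b cells in 4 of 4 captures. In those cells they were at 0.671 to 4.83 CPM and 0.354 to 1.36 CPM. These levels rested on few reads and cells, with 6 to 52 reads of Bcl2a1b and 1 to 14 of Bcl2a1d per capture, of which the top cell held 88.9% to 100% and 84.6% to 100%. Bcl2a1a was higher in Il1b cells in 2 captures, at 0 in both classes in 28 and higher in Elane/Mpo cells in 38, at 0.255 against 0.149 CPM. By age, Bcl2a1a had a change of 8.28 ± 2.39 (log2, SE, edgeR, adjusted p = 0.144), Bcl2a1b one of −2.32 and Bcl2a1d one of −5.79.

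Genes on either side of the family in the pathway gave no call in edgeR by age or by class. By class, the 8 tested genes of the apoptosome and caspases had a median log2 difference of 3.86 against 1.28 over all genes, with 2 at an unadjusted p under 0.05. Htra2, a mitochondrial protease released with cytochrome c, was at 2.67 to 68.7 CPM in Elane/Mpo cells and at 0 in the Il1b cells of all 4 captures (adjusted p = 0.0984). Casp8, the caspase that cleaves BID, had a difference of 6.12 ± 3.11 (adjusted p = 0.332). Among 7 genes of MCL1 turnover and BH3 gene control (median 2.68, 1 at an unadjusted p under 0.05), Trp53, which encodes p53, was at 154 to 499 CPM in Elane/Mpo cells and at 0 to 7.44 CPM in Il1b cells (9.91 ± 3.46, adjusted p = 0.105). Foxo3, a regulator of Bcl2l11, went the other way at −5.98 ± 3.33 (adjusted p = 0.389). The Trp53 and Htra2 levels rested largely on single cells. In the Elane/Mpo cells of each capture the top cell held 59.1% to 100% of the Trp53 reads and 73.3% to 100% of the Htra2 reads.

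The 6 tested inhibitors of apoptosis had a median class difference of −2.01 and the 2 tested genes of the death receptor arm −3.92, with 0 in either list at an unadjusted p under 0.05. Birc3 was at −2.58, Naip2 at −2.30, Cflar at −4.32 and Tnfrsf1a at −3.51 (log2, edgeR, none called). By age, the medians of the 4 lists were 0.46 for the apoptosome and caspases, 0.53 for the inhibitors of apoptosis, −0.31 for the death receptor arm and 0.13 for MCL1 turnover and BH3 gene control, beside 0.26 over all genes, and none of their 29 tested genes was under 0.05 even before adjustment.

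The genes whose reads ran most closely with Mcl1 were sought over the 164 cells thinned to 50000 reads, among 1550 genes read in at least 25% of these cells. The 5 with the highest Spearman rho were Cxcl2 (0.53), which encodes a neutrophil-attracting chemokine, Clec4d (0.48), which encodes a lectin receptor of myeloid cells, the immediate early gene Ier5 (0.46), Tmsb4x (0.46), which encodes an actin-binding peptide, and the chemokine gene Ccl6 (0.45). The cells share captures and differ in class, and these values are descriptions. For Bax, with a read in 7 of these cells, the highest rho was 0.33 (Adam10), followed by Rpl22, Mlec, Cops9 and Rpl10a, and counts this sparse support no ranking.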

How the data were processed

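RNA from 211 single cells (102 at P60, 109 at P120) was analysed. After alignment with STAR to mouse genome mm10 (GRCm38), the authors deposited raw read counts per gene, without normalization, together with the age, capture and sequencing run of each cell. The table was checked to hold whole numbers for 48709 genes and 92 spike-in entries, which were left out of the totals. Median depth per capture ran from 451 to 1825680 reads on genes. GENCODE vM21, an annotation of this build, gave symbols, exon lengths and positions for 48349 identifiers.

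Reads of the cells of a capture, or of a class within it, were added up. Quasi-likelihood fits over all genes used edgeR 4.0.16 in R 4.3.3, with TMM scaling, the filterByExpr filter and a Benjamini-Hochberg threshold of 0.05. The age fit used 12 captures and the class fit 4 captures with the capture as a block, since both classes came from the same chips. DESeq2 1.42.0, other filters, scalings, class cutoffs, the run as a term and each capture left out served as alternatives. Shares were also taken after thinning each cell to 50000 reads, with exact Clopper-Pearson 95% intervals (scipy 1.17.1). A count of 0 was taken to allow 3 cells. No doublet caller was run. Plots were drawn with matplotlib 3.10.9.

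The text names all 10 members, other BCL2 family genes that passed a filter on low counts (those without a read are named after their values were seen), up to 2 genes per pathway list and the 5 genes most like Mcl1 and Bax. The members and lists were chosen with earlier results of these data known. The authors' GFP intensity and counts of uniquely mapped reads were not used.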

Additional observations from a re-analysis of the deposited data

Results flagged for a closer look

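The groups examined were 40 sets of 4 or 8 captures (each member by age, and by class in 4 captures). In 6 of them 1 capture lay far from the others on the log2(CPM + 1) scale. The rule was the gap to its neighbour relative to the range (Dixon's criterion). Its usual chance rate of about 1 in 20 does not hold here, because many groups hold captures at 0. Where all captures but 1 are at 0, any read is flagged, so that the 6 are descriptions. Mcl1 at P60 was 0 CPM in capture 10c, against 265 CPM in the next capture. Bak1 at P60 was 3.82 CPM in capture 31, against 0.680 in the next. Bbc3 at P60 was 14.4 CPM in capture 19c, against 0.907 in the next. In Elane/Mpo cells, Bbc3 was 5.28 CPM in capture 32, against 0.222 in the next. In Il1b cells, Bcl2 was 0.0745 CPM in capture 38, a single read, and Bbc3 was 4.25 CPM in capture 9c, with the other 3 captures at 0 for both genes.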

How the results depend on the processing

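In the age comparison, 10 genes were called, against 22 without the filter on low counts, 74 in DESeq2, 5 with library totals, 2 in the runs with both ages, 0 with thinned cells, 0 with the run as a term, 0 in Il1b cells only, 0 without Elane/Mpo cells, and 1 to 16 when 1 capture was left out. No member was called by age under any of these alternatives. In the class comparison, 18 genes were called higher and 90 lower, against totals of 60 without the filter, 1793 in DESeq2, 46 with thinned cells, 262 in DESeq2 with thinned cells, 50 when Elane and Mpo both had to reach 10 reads, 6 with at least 5 cells per capture and class, 172 and 45 when cells of both classes joined the Elane/Mpo or the Il1b cells, and 42 to 85 with 1 capture left out. Without the replicate block of the capture, 42 genes were called and Mcl1 kept its call (adjusted p = 0.0370, edgeR). The median class difference of all genes (log2) was 1.28, and 2.21 with library totals, 0.05 without the block and −0.50 in DESeq2. The number of members called by class was 1, against 2 in DESeq2 and 0 without the filter, with library totals, with thinned cells in edgeR or DESeq2, with Elane and Mpo both at 10 reads and with 5 cells per class, and 0 to 1 with 1 capture left out. DESeq2 called 1286 genes higher and 507 lower of 21620, a larger share than the 18 and 90 of 5775 in edgeR. Its count of members is to be read beside this. The joined classes and DESeq2 on thinned cells were added after seeing the data. The causes were not tested.

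Of 203 fitted values of members under alternatives, 176 kept their direction and side of the threshold, 9 (all Mcl1 by class) lost the call and 18 changed direction, none of these called. By age, leaving out 1 capture moved Mcl1 between −0.22 and 1.05, Bax between −2.58 and 1.72, Bad between −5.45 and −1.10, Bcl2l1 between 3.39 and 6.84, Bid between −3.27 and −1.54 and Pmaip1 between −0.95 and 2.74 (log2). Bcl2l11 was −1.21 in Il1b cells only, and Bax was 0.16 with the run as a term and 0.19 in the runs with both ages. By class, Bad was −0.059 in DESeq2 with thinned cells. Pmaip1 by class was −0.044 without the filter, −0.18 in DESeq2, −0.19 at 100 reads, −0.31 with Elane and Mpo both at 10 reads, −1.76 with 5 cells per class, −3.23 without the replicate block, −0.65 with cells of both classes joined to Il1b cells, −2.13 in DESeq2 with thinned cells, and −2.50 to 1.88 with 1 capture left out. Classes at 1 read and the class difference by age left too few captures to fit. In 47 cells under 50000 reads, Bcl2, Bax, Bak1 and Bbc3 had no read, Bad was read in 2, Bcl2l1 and Pmaip1 in 3 each, Bcl2l11 in 4, Bid in 6 and Mcl1 in 29.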

Other observations

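Cells with few reads of a rarer member lay in part in the capture or the run of the cell with the most. Of 17 cells with 1 to 9 reads of Bcl2, 7 came from the capture of its top cell and 9 from the same sequencing run, which held 88 cells. For Bak1, 0 of 19 such cells came from the top cell's capture, and for Bad 0 of 14. For Bid, 12 of 38 came from the capture and 21 from the run of the top cell. Cells that met both class definitions had the members in larger shares than either class for Mcl1 (24 of 24), Bax, Bcl2, Bad and Pmaip1 (7 of 24 each) and Bbc3 (5 of 24), but not for Bid (11 of 24), Bak1 (5 of 24), Bcl2l1 (4 of 24) and Bcl2l11 (3 of 24). They had a median of 1746570 reads. These shares were not tested, and no search for doublets was made.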
